A study of Mus musculus with 12 samples.

Results

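The 10 genes described here bring pyruvate into mitochondria, switch the enzyme that burns it on and off, and carry lactate and pyruvate across the cell membrane. They were chosen by name, 1 row each, from the 43686 rows of an RNA-seq table of mouse ventricular wall, and all 10 passed the low-count filter that left 17155 rows for testing. Of the 10, 3 were higher and 6 lower in KO hearts than in WT hearts and 1 was not called. Of all rows tested, 25.6% were higher and 25.5% lower at the same threshold, an adjusted p of 0.05. The members were Mpc1 and Mpc2 (the mitochondrial pyruvate carrier), Pdk1 to Pdk4 (kinases of pyruvate dehydrogenase, PDH), Pdp1 and Pdp2 (the phosphatases that oppose them), and Slc16a1 and Slc16a3 (the lactate transporters MCT1 and MCT4).

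The WT group was 6 mice homozygous for the floxed Sdhaf4 allele, written Sdhaf4fl/fl, without Cre, and the KO group was 6 mice with the same floxed alleles and Ckmm-Cre. All animals therefore carry the floxed allele, and Cre presence and the deletion cannot be told apart in this design. Ckmm-Cre is driven by the muscle creatine kinase promoter, which is active in skeletal as well as cardiac muscle, so the other cell types of the wall keep the gene and the KO animals lack it in more than the heart. The labels give an age of 2 months for both groups, and the study's text is not uniform on the age. Sdhaf4 encodes an assembly factor of succinate dehydrogenase, complex II of the respiratory chain.

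Pyruvate is the end product of glycolysis. MPC1 and MPC2 form a heterodimer in the inner mitochondrial membrane that imports it, and the PDH complex then converts it to acetyl-CoA. PDH kinases phosphorylate the E1 alpha subunit and switch the complex off, and PDH phosphatases switch it back on. The heart burns mostly fatty acids and keeps much of its PDH in the off state in that condition. PDK4 is known as the kinase that rises with fatty acid use and fasting, whereas PDK1 and PDK3 are known targets of the hypoxia-inducible factors. Pyruvate that does not enter mitochondria can be reduced to lactate, which leaves or enters cells through MCT1, the form of oxidative tissue, and MCT4, the form typical of glycolytic cells.

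The promoter windows of the member that rose most, of the kinase that rose most and of the kinase that fell most are shown because these genes mark the extremes of the results. They are RefSeq windows on GRCm38.p6, from 250 bases before to 50 bases after the annotated start, printed on the strand of the gene. Windows were given for 9 of the 10 members, 12 windows in all, and not for Pdp1. Capitals mark ACGTG, a spelling of the core of the hypoxia response element, or AGGTCA, the nuclear receptor half-site, searched on both strands. The other spelling of that core, GCGTG, was neither searched nor marked, and the Pdk3 and Pdk4 windows hold it. The windows are chr11:120948817-120949116, plus strand, for Slc16a3, chrX:93832101-93832400, minus strand, for Pdk3, and chr6:5496229-5496528, minus strand, for Pdk4.
Slc16a3: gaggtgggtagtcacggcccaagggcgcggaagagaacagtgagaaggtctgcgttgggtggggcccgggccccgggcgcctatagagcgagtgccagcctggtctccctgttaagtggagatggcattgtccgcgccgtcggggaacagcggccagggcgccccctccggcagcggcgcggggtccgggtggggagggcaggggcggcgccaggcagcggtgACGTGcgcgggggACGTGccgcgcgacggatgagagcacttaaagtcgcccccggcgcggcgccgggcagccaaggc
Pdk3: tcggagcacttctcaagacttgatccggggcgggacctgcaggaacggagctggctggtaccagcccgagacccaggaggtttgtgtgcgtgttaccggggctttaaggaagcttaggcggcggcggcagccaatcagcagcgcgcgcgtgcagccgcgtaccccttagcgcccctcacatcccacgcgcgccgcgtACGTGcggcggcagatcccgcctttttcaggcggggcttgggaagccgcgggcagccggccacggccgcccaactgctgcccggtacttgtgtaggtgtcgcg
Pdk4: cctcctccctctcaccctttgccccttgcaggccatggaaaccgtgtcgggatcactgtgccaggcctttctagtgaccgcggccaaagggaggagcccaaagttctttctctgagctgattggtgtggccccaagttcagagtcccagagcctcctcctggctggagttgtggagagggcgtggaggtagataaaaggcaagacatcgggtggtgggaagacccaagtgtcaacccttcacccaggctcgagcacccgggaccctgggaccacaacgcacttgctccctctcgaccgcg

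The Slc16a3 window held ACGTG 2 times, with first bases at -27 and -14 from the start, the Pdk3 window held it 1 time at -53, and the Pdk4 window held neither motif. ACGTG lay in 19.6% of 32817 RefSeq mouse promoter windows and in 5 of the 12 member windows, 1 each of Pdk2, Pdk3, Pdp2, Slc16a1 and Slc16a3. Of these 5, Pdk3 and Slc16a3 were higher in KO hearts, Pdk2 and Pdp2 were lower and Slc16a1 was not called. AGGTCA lay in 16.3% of all windows and in 1 member's, Mpc1. The direct repeat of that half-site with 1 base between (0.0396% of all windows, each of which also holds the half-site) and the palindromic glucocorticoid response element (0.00914%) were in no member's window. Nor was the forkhead site, spelled TGTTTAC, which 3.65% of all windows held. A match is a string of letters and not a bound site, and no match says only that the letters are not in these 300 bases.

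Each library held 23747014 to 27159228 counts in WT and 26542930 to 31393393 in KO hearts. Sdhaf4 was 14.3, 26.7 and 30.3 CPM (read counts relative to library size, normalized by TMM) in the lowest, median and highest WT heart and 2.25, 2.35 and 2.73 in KO hearts, a log2 fold change of -3.39 ± 0.16 (SE, edgeR quasi-likelihood test, adjusted p = 1.95e-10, n = 6 per group). All fold changes below are KO against WT from the same fit, and adjusted p-values are Benjamini-Hochberg values over all rows tested. The tissue carried its defining transcripts, such as Myh6 at a mean of 16530 CPM in WT and 14416 in KO hearts. The summed level of 10 cardiomyocyte markers was 59000 to 66499 CPM in WT and 48603 to 68084 in KO hearts, with 5 lower, 1 higher and 4 not called. All 8 fibroblast markers were higher, with a sum of 1420 to 1670 CPM in WT and 2584 to 4867 in KO hearts, and 5 of 8 endothelial markers were higher and 1 lower. The part of these shifts in the results was not tested, and in whole ventricular wall fewer cells of a type and less RNA per cell cannot be told apart.

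Across all rows tested 25.6% were higher and 25.5% lower in KO hearts at an adjusted p of 0.05, so that calls in both directions are the background against which the 3 higher and 6 lower members are read. At the stricter threshold of the study's methods, which asks for a log2 fold change beyond 1 and an adjusted p under 0.005, 5.36% of rows were higher and 4.87% lower, and among the members 2 were higher (Pdk3 and Slc16a3) and 2 lower (Pdk4 and Pdp2). The WT and KO values did not overlap for 14.9% of rows in the higher and 15.2% in the lower direction, and for 2 members higher (Pdk3 and Slc16a3) and 5 lower (Mpc2, Pdk2, Pdk4, Pdp1 and Pdp2). The median absolute log2 fold change was 0.77 over the 10 members and 0.30 over all rows tested, and the medians of the signed values were -0.30 and 0.002. Scaling to the cardiomyocyte markers in place of TMM raised the median of all rows by over 0.1, to 0.22, and gave 6467 rows higher and 2105 lower in place of 4391 and 4376. Under it the members were 4 higher and 5 lower.

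**Figure D1:**
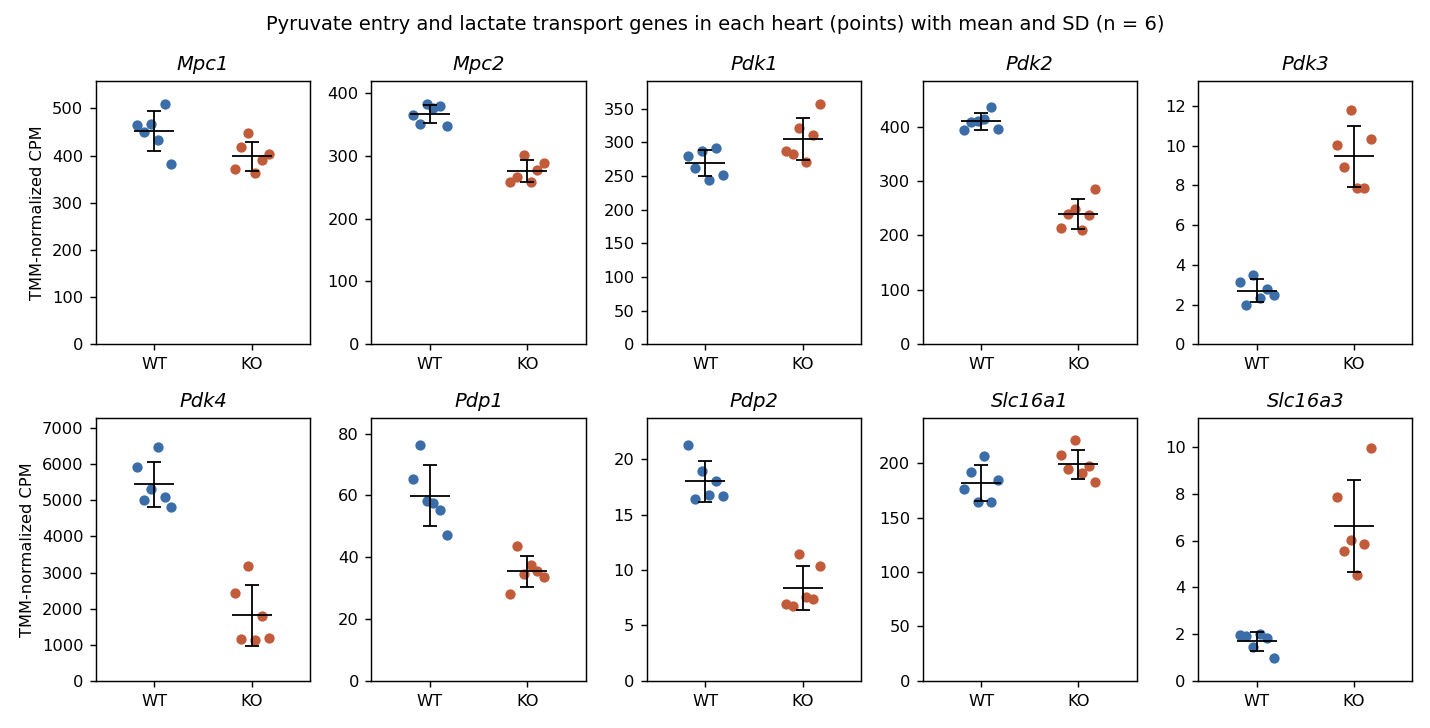
TMM-normalized CPM of each member (vertical axes from 0, a scale of its own per gene) in each WT and KO heart, with the mean and SD of 6 hearts. Pdk3 and Slc16a3 lie wholly above WT in KO hearts, Mpc2, Pdk2, Pdk4, Pdp1 and Pdp2 wholly below, and Mpc1, Pdk1 and Slc16a1 overlap.

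Among the pyruvate carrier genes, Mpc2 fell in KO hearts, and the 2 subunits changed unequally. Mpc2 (MGP_C57BL6NJ_G0017096, chromosome 1, 176680316 to 176701976 on the plus strand of the C57BL/6NJ assembly) was 347, 370 and 382 CPM in the lowest, median and highest WT heart and 259, 272 and 302 in KO hearts. Every KO heart was below every WT heart. The log2 fold change was -0.41 ± 0.05 (SE, edgeR adjusted p = 3.96e-06), a 1.33-fold lower level, and -0.20 (edgeR adjusted p = 0.0239) with libraries scaled to the cardiomyocyte markers.

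Mpc1 (MGP_C57BL6NJ_G0023543, chromosome 17, 6029500 to 6044276, plus strand), the obligate partner of MPC2, was 383, 458 and 510 CPM in WT and 363, 397 and 447 in KO hearts. Only 2 of 6 KO hearts were below the lowest WT heart. Its log2 fold change was -0.18 ± 0.07 (SE, edgeR adjusted p = 0.0365), and it turned to 0.02 (edgeR adjusted p = 0.827) when libraries were scaled to the cardiomyocyte markers. The call was also lost without WT replicate 1, 2, 3 or 5 or KO replicate 1, 4 or 5, where adjusted p from edgeR reached 0.0819. An unnamed row on the opposite strand overlaps 4296 bases of Mpc1 and carried 4.71% of its number of counts, and the strand setting of the counting was not given in the sources used here. A pair of processed pseudogenes share 242 and 261 bases with Mpc1 at 95.9% and 100% identity, and a transcript of another locus shares 107 bases at 100%, so its counts are uncertain to that extent.

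The ratio of Mpc1 to Mpc2, formed within each heart from FPKM (fragment counts scaled by gene length and library size), was 2.94, 3.33 and 3.58 in WT and 3.72, 3.78 and 4.17 in KO hearts. It was higher in every KO heart than in any WT heart, by 0.24 on the log2 scale (two-sided exact permutation test over the 12 hearts, p = 0.00216, the smallest this design can give, and 0.00361 after adjustment over the 5 ratios tested). A ratio within a library does not depend on its scaling. With the group means removed, Mpc1 and Mpc2 varied together from heart to heart (r = 0.73, p = 0.00694, and Spearman's rho = 0.70, p = 0.0189, permutation within groups, n = 12). The r was 0.72 without the 2 hearts farthest from the median of Mpc1. Of the 45 pairs of members, 11 pairs had an unadjusted permutation p for r under 0.05 and none passed after adjustment (0.110 for r and 0.202 for rho of this pair). Other pairs had a larger r, such as Mpc2 with Pdp2 and Pdk1 with Pdk2 (0.77 each).

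Pdk4 fell most among the kinases and remained the most abundant of the 10 members in the deposited FPKM. Pdk4 (MGP_C57BL6NJ_G0030873, chromosome 6, 2392986 to 2408102, minus strand) was 4825, 5206 and 6472 CPM in the lowest, median and highest WT heart. KO hearts 1 to 6 had 2447, 1162, 3192, 1126, 1809 and 1189 CPM. The highest KO heart, replicate 3, was below the lowest WT heart, and KO replicates 2, 4 and 6 lay close together near the bottom. The log2 fold change was -1.58 ± 0.26 (SE, edgeR adjusted p = 0.000362), a 2.99-fold lower level.

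The KO hearts were uneven in Pdk4. Its coefficient of variation was 46.5% among KO hearts and 11.6% among WT hearts, and the KO value was at the 99.2nd percentile of the 11167 rows with a mean of at least 5 CPM, whose median was 9.47%. Leaving out any 1 library gave log2 fold changes of -1.82 (without KO replicate 3) to -1.47. KO replicate 3 was also the highest KO heart for Mpc1, Mpc2, Pdk3, Pdp2 and Slc16a1, 6 of the 10 members in all, and KO replicate 4 was the lowest for 6. Their library totals were 31393393 and 28237840 counts. Their TMM factors were 0.963 and 1.031, the lowest and highest of the 12 libraries, and a lower factor gives a higher CPM. In FPKM, which takes no TMM factor, KO replicate 3 stayed highest for the same members. There Mpc2 and Pdk2 were lowest in KO replicate 1 and Pdk4 in KO replicate 6.

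Pdk2 (MGP_C57BL6NJ_G0019368, chromosome 11, 100274327 to 100289423, minus strand), the kinase most widely expressed across tissues, was 395, 409 and 437 CPM in WT and 211, 239 and 286 in KO hearts. All 6 KO hearts were below all 6 WT hearts. The log2 fold change was -0.78 ± 0.07 (SE, edgeR adjusted p = 5.91e-08), a 1.71-fold lower level, and with Pdk4 it made 2 kinases lower.

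Pdk3 (MGP_C57BL6NJ_G0036404, chromosome X, 92884217 to 92959713, minus strand), a kinase of low abundance in these hearts, was 1.95, 2.64 and 3.5 CPM in WT and 7.85, 9.47 and 11.8 in KO hearts. The values rest on 54 to 89 counts in a WT library and 229 to 356 in a KO library. Every KO heart was above every WT heart, and the log2 fold change was 1.81 ± 0.15 (SE, edgeR adjusted p = 4.05e-08), a 3.51-fold higher level.

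Pdk1 (MGP_C57BL6NJ_G0026246, chromosome 2, 74210602 to 74242854, plus strand) was 245, 271 and 292 CPM in WT and 271, 299 and 357 in KO hearts, so that 3 KO hearts lay within the WT range. Its log2 fold change was 0.18 ± 0.07 (SE, edgeR adjusted p = 0.0375). The call was lost without WT replicate 1, 2, 4 or 6 or KO replicate 3, 5 or 6, with log2 fold changes over all such omissions of 0.13 to 0.21, and with upper-quartile scaling (edgeR adjusted p = 0.0576). Scaled to the cardiomyocyte markers it was 0.39 (edgeR adjusted p = 0.00091).

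**Figure D2:**
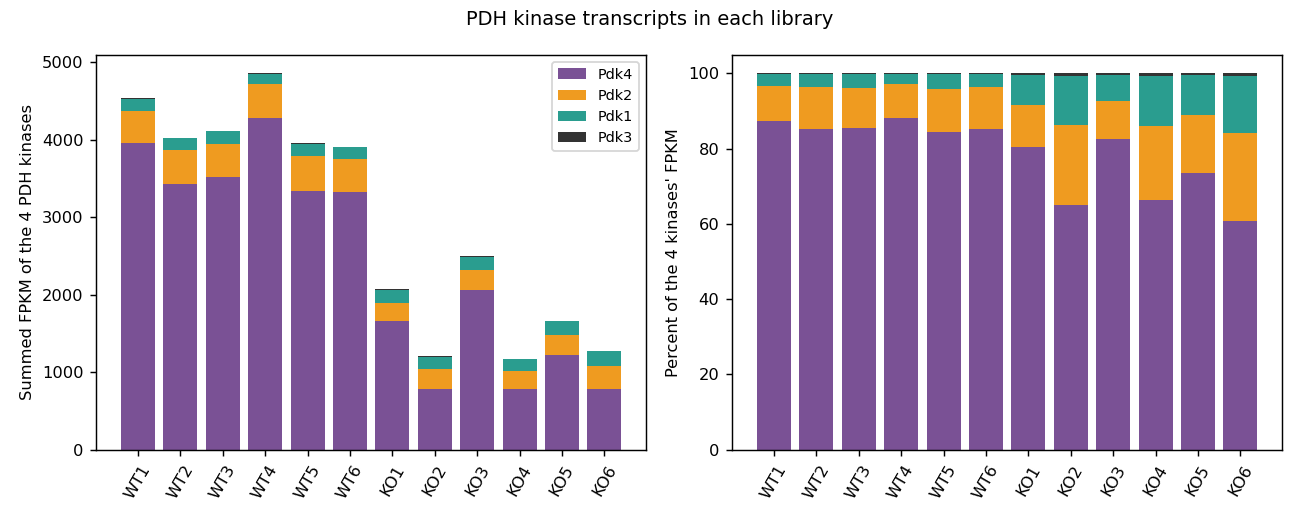
FPKM of the 4 PDH kinases in each heart, as a stacked sum (left) and as the percent of that sum (right), WT1 to WT6 and KO1 to KO6. Pdk4 takes 84.4% to 88.2% of the sum in WT hearts and 60.8% to 82.5% in KO hearts, with KO1 and KO3 nearest to WT.

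Because FPKM is per length, the 4 kinases can be added within a heart. Their sum was 3904, 4068 and 4857 FPKM in the lowest, median and highest WT heart and 1173, 1472 and 2497 in KO hearts, with no overlap. Pdk4 made up 84.4%, 85.4% and 88.2% of that sum in WT and 60.8%, 70.0% and 82.5% in KO hearts. The share of Pdk1 was 2.76% to 4.02% in WT and 6.90% to 15.1% in KO hearts, that of Pdk2 was 8.97% to 11.5% and 10.2% to 23.3%, and that of Pdk3 was 0.0459% to 0.0809% and 0.437% to 0.760%. With the gene length given in the table in place of the one the FPKM imply (compared under the order of levels), Pdk4 was 85.3% to 88.9% of the sum in WT and 62.9% to 83.7% in KO hearts. On both lengths a larger share went to Pdk1 and Pdk3 in every KO heart, although Pdk3 stayed under 1 percent.

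The ratio of Pdk4 to Pdk2 was 7.32, 7.94 and 9.83 in WT and 2.61, 4.07 and 8.09 in KO hearts, lower by 0.91 on the log2 scale (exact permutation p = 0.0130, adjusted over 5 ratios 0.0162), with KO replicate 3 inside the WT range. The ratio of Pdk1 to Pdk2 was 0.308, 0.341 and 0.369 in WT and 0.614, 0.674 and 0.701 in KO hearts, 0.96 higher on the log2 scale (exact permutation p = 0.00216, adjusted 0.00361). The 6 KO values of that ratio were all above the 6 WT values, and it varied less among KO hearts than the Pdk4 ratio did, with an SD on the log2 scale of 0.07 and 0.68.

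Both phosphatases fell. Pdp2 (MGP_C57BL6NJ_G0034508, chromosome 8, 110659600 to 110664960, plus strand), the isoform known to respond to insulin, was 16.4, 17.4 and 21.2 CPM in WT and 6.71, 7.45 and 11.5 in KO hearts. There was no overlap, and the log2 fold change was -1.10 ± 0.13 (SE, edgeR adjusted p = 2.34e-06), a 2.14-fold lower level. Under the cardiomyocyte marker scaling it was -0.91, short of the stricter threshold.

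Pdp1 (MGP_C57BL6NJ_G0028471, chromosome 4, 9059514 to 9067782, minus strand), the isoform activated by calcium and the main one of muscle, was 47.2, 57.8 and 76.4 CPM in WT and 28.2, 35.1 and 43.5 in KO hearts. Again every KO heart was below every WT heart, with a log2 fold change of -0.76 ± 0.11 (SE, edgeR adjusted p = 5.17e-05), a 1.69-fold lower level.

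The ratio of Pdp1 to Pdp2 was 3.47, 3.77 and 5.72 in WT and 3.71, 5.46 and 7.96 in KO hearts. The difference of 0.37 on the log2 scale did not pass (exact permutation p = 0.0996, also 0.0996 after adjustment over 5 ratios), so an unequal fall of the 2 phosphatases was not shown. Without WT replicate 2 or without KO replicate 3 the difference was 0.47 with an unadjusted exact permutation p of 0.0368.

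Set against the phosphatases, the kinase transcripts were lower in most KO hearts when Pdk4 was counted and higher in most when it was not. The kinase sum was 125, 162 and 196 times the phosphatase sum in WT hearts and 69.5, 100.4 and 170.5 times in KO hearts, with 4 of 6 KO hearts below all WT hearts. Without Pdk4 the ratio was 18.4, 23.1 and 26.3 in WT and 24.4, 29.5 and 34.7 in KO hearts, with 4 of 6 above all WT hearts. The kinase sum without Pdk4 was itself lower in all 6 KO hearts, 395 to 500 FPKM against 572 to 617 in WT hearts, as was the phosphatase sum, 12.1 to 17.4 against 22.04 to 32.3. With the given gene lengths the medians were 92.4 in WT and 57.2 in KO hearts with Pdk4, and 12.5 and 15.7 without it, so the size of these ratios depends on the length used, whereas again 4 of 6 KO hearts lay below and 4 of 6 above all WT hearts. These ratios are descriptions of mRNA and were given no test.

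**Figure D3:**
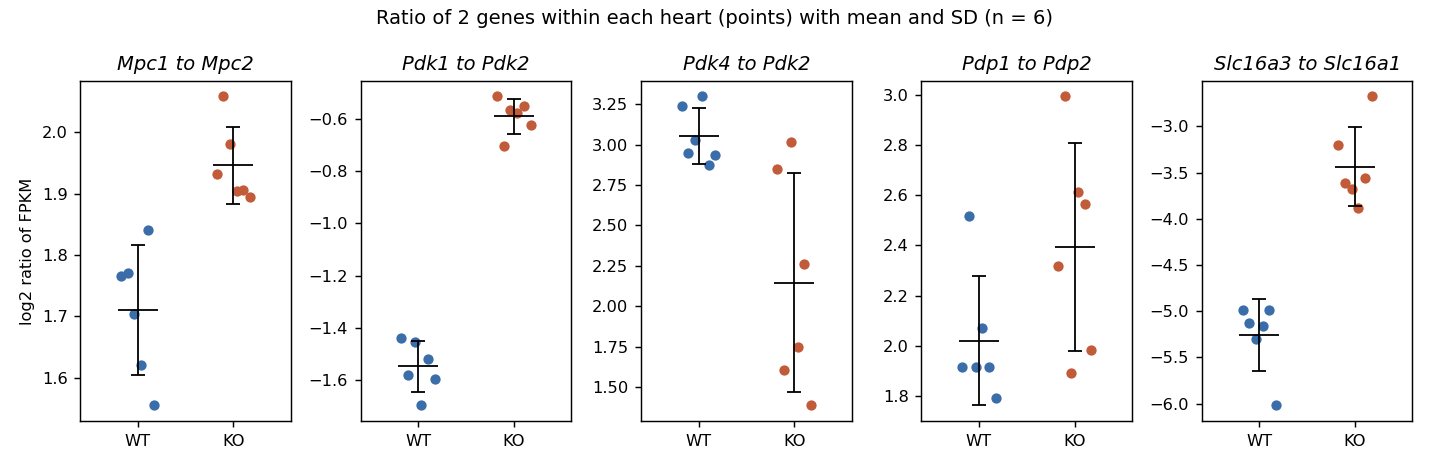
Ratio of 2 members' FPKM within each heart, as log2 (vertical axes, a scale of its own per panel that does not start at 0), with the mean and SD of 6 hearts per group. The groups separate for Mpc1 to Mpc2, Pdk1 to Pdk2 and Slc16a3 to Slc16a1, and overlap for Pdk4 to Pdk2 and Pdp1 to Pdp2.

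Slc16a3 had the largest fold rise of the 10 members, from a low level. Slc16a3 (MGP_C57BL6NJ_G0019924, chromosome 11, 129277843 to 129290291, plus strand) was 0.994, 1.87 and 2.03 CPM in the lowest, median and highest WT heart and 4.54, 5.95 and 9.98 in KO hearts. The counts were 26 to 53 in a WT library and 132 to 277 in a KO library, and every KO heart was above every WT heart. The log2 fold change was 1.97 ± 0.21 (SE, edgeR adjusted p = 6.6e-07), a 3.92-fold higher level.

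Slc16a1 (MGP_C57BL6NJ_G0028123, chromosome 3, 109913316 to 109935172, plus strand) was 164, 180 and 207 CPM in WT and 183, 196 and 221 in KO hearts, and 2 KO hearts lay above the WT range. Its log2 fold change of 0.13 ± 0.06 (SE, 95% interval 0.001 to 0.27) did not pass (edgeR adjusted p = 0.0856). It passed without WT replicate 4 (0.17, edgeR adjusted p = 0.0285) and with scaling to the cardiomyocyte markers (0.35, edgeR adjusted p = 0.00164).

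Slc16a3 remained the minor transporter in every heart. The ratio of Slc16a3 to Slc16a1 was 0.0154, 0.0283 and 0.0316 in WT and 0.0680, 0.0833 and 0.156 in KO hearts, 1.83 higher on the log2 scale with no overlap (exact permutation p = 0.00216, adjusted over 5 ratios 0.00361). As a share of the FPKM of both, Slc16a3 was 1.52% to 3.07% in WT and 6.36% to 13.5% in KO hearts. The FPKM imply 1546 bases for Slc16a3, against a given length of 4335, and with the given length the share was 0.547% to 1.12% in WT and 2.37% to 5.28% in KO hearts, while the log2 difference between groups does not depend on the length. Slc16a3 is also expressed by cells other than cardiomyocytes, and the fibroblast markers were higher in the same KO hearts. Their part in this rise was not tested.

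The order of levels per length was compared within each group on the deposited FPKM. In WT hearts the means were Pdk4 3642, Mpc1 664, Pdk2 437, Mpc2 203, Pdk1 150, Slc16a1 41.0, Pdp1 21.1, Pdp2 5.17, Pdk3 2.59 and Slc16a3 1.09 FPKM, and no neighbours in that order overlapped between hearts. In KO hearts they were Pdk4 1215, Mpc1 587, Pdk2 255, Pdk1 169, Mpc2 152, Slc16a1 44.97, Pdp1 12.5, Pdk3 9.09, Slc16a3 4.28 and Pdp2 2.40 FPKM. The ranges of Pdk1 and Mpc2, of Pdp1 and Pdk3, and of Slc16a3 and Pdp2 overlapped in KO hearts. Pdk3 and Slc16a3, the lowest of the 10 in WT hearts, thus each overlapped a phosphatase in KO hearts. For several members the FPKM imply a length shorter than the gene length given beside them (1491 against 3488 bases for Pdk4). With the given lengths the WT order was the same, whereas in KO hearts the ranges of Pdk4 and Mpc1 overlapped, those of Pdp1 and Pdk3 did not, and the means of Mpc2 and Pdp2 came above those of Pdk1 and Slc16a3.

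**Figure D4:**
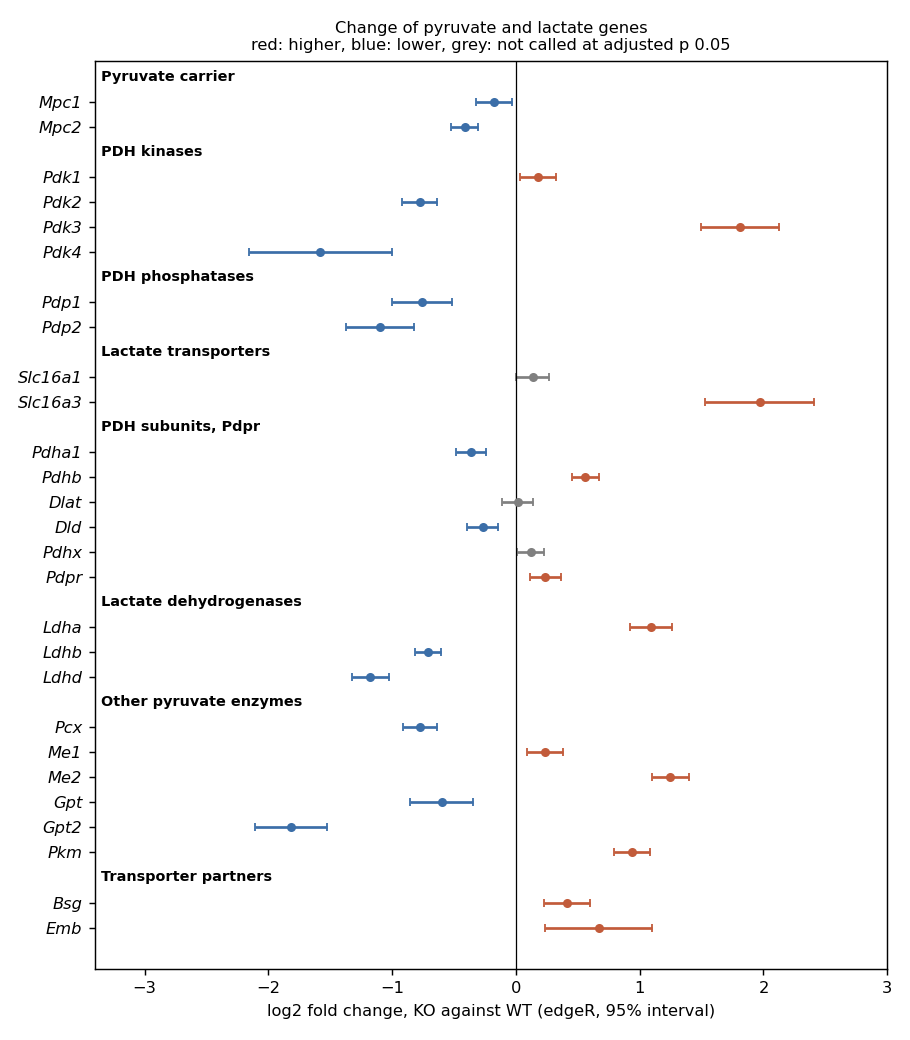
Log2 fold change of KO against WT with its 95% interval from edgeR (horizontal axis) for the 10 members and for genes of the same pathway (vertical axis, by role). Red is higher, blue lower and grey not called at an adjusted p of 0.05. Among the members Slc16a3 (1.97) and Pdk3 (1.81) lie farthest right and Pdk4 (-1.58) farthest left, and the intervals of Mpc1 and Pdk1 end near 0.

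The genes on either side of these steps were read from lists of the pathway. Of 6 genes for PDH subunits and the phosphatase regulator, 2 were higher, 2 lower and 2 not called, with a median log2 fold change of 0.07. Pdhb, the E1 beta subunit, rose by 0.56 (edgeR adjusted p = 1.55e-07) and Pdpr, the regulatory subunit of the phosphatase, by 0.24 (edgeR adjusted p = 0.00293). Pdha1, the E1 alpha subunit that the kinases phosphorylate, fell by 0.37 (edgeR adjusted p = 4.59e-05) and Dld, the shared E3 subunit, fell by 0.27 (edgeR adjusted p = 0.00104). Dlat, the E2 subunit, at 0.01 and Pdhx, the E3-binding protein, at 0.12 were not called. The carrier sum was 1.46 to 1.93 times the mean FPKM of the PDH subunits in WT and 1.48 to 1.63 times in KO hearts, with the KO range inside the WT range. With the given gene lengths it was 1.70 to 2.27 and 1.59 to 1.81 times, with 4 of 6 KO hearts below all WT hearts.

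All 3 lactate dehydrogenase genes changed. Ldha, whose subunit predominates in glycolytic tissue, rose by 1.09 on the log2 scale (mean 558 to 1187 CPM, edgeR adjusted p = 1.11e-08), while Ldhb, the heart-type subunit, fell by 0.71 (1443 to 882 CPM, edgeR adjusted p = 6.36e-09). Ldhd, which oxidizes D-lactate, fell by 1.17 (edgeR adjusted p = 1.19e-09). The WT and KO hearts did not overlap in any of the 3.

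Of 7 other enzymes of pyruvate, 6 had a row that was tested, with 3 higher and 3 lower. Pkm, pyruvate kinase of muscle, rose by 0.94, Me2, the mitochondrial malic enzyme, by 1.25, and Me1, the cytosolic form, by 0.24 on the log2 scale. Gpt2, the mitochondrial alanine transaminase, fell by 1.82, Pcx, pyruvate carboxylase, fell by 0.77, and Gpt fell by 0.60. Of 5 genes for cofactors of PDH, Lias was higher (0.15), Lipt2 (-0.69) and Lipt1 (-0.42) were lower and 2 were not called.

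Both genes for partners that carry monocarboxylate transporters to the membrane were higher. Bsg, basigin, the partner of MCT1 and MCT4, rose by 0.41 (edgeR adjusted p = 0.000794) and Emb, embigin, by 0.67 (edgeR adjusted p = 0.0116). Of 14 other SLC16 and sodium-coupled transporters 9 were tested, 4 were lower and none was higher, with a median of -0.74 and 5 not called. The lower ones were, by smallest p, Slc16a9 (-1.05), Slc16a10 (-0.74), which carries aromatic amino acids, Slc16a13 (-1.23) and Slc16a7 (-1.44, edgeR adjusted p = 3.23e-05). Slc16a7 encodes MCT2, a carrier of pyruvate and lactate, and was 3.82 to 7.08 CPM in WT and 1.01 to 2.68 in KO hearts, with no overlap. Slc16a3 was thus the 1 gene called higher among the 11 tested SLC16 and sodium-coupled genes, members included, at an adjusted p of 0.05 with TMM scaling.

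Of 14 transcriptional regulators of PDH kinase genes 13 were tested, with 3 higher, 3 lower and 7 not called (median 0.06). Hif1a, the oxygen-regulated factor, rose by 0.86 (98.0 to 178 CPM, edgeR adjusted p = 8.5e-09), Epas1 by 0.35 and Ppara, a fatty acid receptor, by 0.41. Rxra, the partner of the PPARs, fell by 0.57, Nr3c1, the glucocorticoid receptor, fell by 0.21 and Foxo1 fell by 0.17. Ppargc1a was -0.03 (120.5 and 118 CPM) and Klf15 0.01, and neither was called. Of the 3 mitochondrial deacylase genes listed as acting on PDH, Sirt3 fell by 0.48 and Sirt4 and Sirt5 were not called.

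The annotated rows whose log2 CPM was most like that of a member from heart to heart, with the group means removed, were found among 10250 rows with a mean over 5 CPM. For Pdk4 they were Cpt1a (r = 0.91), which admits fatty acids to mitochondria, Ndufb6 (0.91), a subunit of complex I, and Pank1 (0.90), which makes a precursor of coenzyme A. Within the KO hearts alone Cpt1a had an r of 0.94 with Pdk4 and within the WT hearts 0.40. Cpt1a was itself 0.19 higher in KO hearts on the log2 scale (edgeR adjusted p = 0.0225), the opposite direction to Pdk4. For Mpc1 they were Acyp2 (0.96), Psma6 (0.95) and Fkbp3 (0.93), and for Slc16a1 they were Dhx8 (0.86), Ube2h (0.86) and Tnpo2 (0.84). These are the highest of 10250 values over 12 hearts, and are given as a description. All rows of a heart share its library, depth and dissection.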

How the data were processed

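RNA of ventricular wall from 6 WT and 6 KO mice was sequenced as poly-A libraries. The authors deposited raw counts per gene from HTSeq (v0.9.1, with HISAT2 2.0.5 and mm10 in the submitters' processing notes) and FPKM per library, computed by the authors from counts, length and library size. The identifiers are those of the C57BL/6NJ assembly, and that difference was not tested. The deposited group means, scaled counts and DESeq fold changes and p-values were not used. Counts were fitted with edgeR 4.0.16 in R 4.3.3 (filterByExpr, TMM, robust quasi-likelihood) on all 17155 rows kept. The code of the fit was also run on simulated counts with few changed genes and a dispersion common to all genes. That setting differs from these hearts, so the run does not test the error rate here. Standard errors were derived from the F statistic of each fold change. FPKM served for ratios and levels between genes. Ratios were tested by two-sided exact permutation over 12 hearts (smallest p 0.00216). DESeq2 1.42.0, limma 3.58.1 (voom), other scalings, filters, a replicate block and leaving out each library were alternatives. The closest libraries of 1 group had a chi-square of 7.41 for each degree of freedom, and none was counted as a duplicate. P-values for group differences set the difference against the spread between these hearts, and those from edgeR also draw on the spread of other rows. The members, the lists, the ratios and the tests were chosen with earlier results of these data known. Named were every member, Sdhaf4, genes of the pathway lists, of other lists the called genes with the 3 smallest p, and the 3 rows most like Pdk4, Mpc1 and Slc16a1. Myh6 and Slc16a7 were named, and sums and shares by the given gene lengths added, after the data were seen.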

Additional observations from a re-analysis of the deposited data

Results flagged for a closer look

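The ratio of Pdp1 to Pdp2 FPKM in WT replicate 2 was 5.72, whereas the other 5 WT hearts lay between 3.47 and 4.21. Its gap to the nearest heart, as a share of the group's range, was 0.671, above Dixon's 95% critical value for 6 samples. It was 1 of 30 groups of hearts examined in this way, of which chance would mark about 1.5. That heart had the highest Pdp1 level of the WT hearts (76.4 CPM) and the lowest Pdp2 level (16.4 CPM).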

How the results depend on the processing

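Over 230 fits of the 10 members under alternatives, 212 kept the direction and the side of the threshold, and Mpc2, Pdk2, Pdk3, Pdk4, Pdp1, Pdp2 and Slc16a3 did so in every one. The 18 others belonged to Mpc1, Pdk1 and Slc16a1. Scaling to cardiomyocyte markers took Mpc1 from -0.18 to 0.024 and the median of all rows from 0.002 to 0.22. Each of the 10 members moved upward, such as Mpc2 from -0.41 to -0.20, Pdk2 from -0.78 to -0.57 and Slc16a1 from 0.13 to 0.35. The change of sign in Mpc1 was thus part of a shift shared by the members and not particular to it. Of the 10 markers that set this scaling, 5 were lower and 1 higher in KO hearts. Why the markers differed was not tested. Leaving out 1 library gave -0.22 to -0.15 for Mpc1, 0.13 to 0.21 for Pdk1 and 0.25 to 0.47 for the log2 ratio of Pdp1 to Pdp2 (exact permutation p 0.0368 to 0.169). The replicate numbers did not pair the hearts (same-number correlations -0.16 to 0.02), and 1 of the 6 WT hearts, replicate 3, correlated best with its own number. A replicate block gave 4123 rows higher and 4110 lower and the same counts of members, 3 higher and 6 lower, with -1.69 for Pdk4. The Slc16a3 and Pdk3 values in WT hearts rest on under 100 counts a library, which limits their precision, and counting error alone is what depth sets.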
